A study of Mus musculus with 19 samples.

Results

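The splicing factors, SR proteins and hnRNPs described here are the genes of a mouse liver array table whose symbols begin with Srsf, Sfrs, Hnrnp, Hnrp, Sf3, Prpf, U2af or Snrp, together with Pnn, Son, Tra2a, Tra2b, Clk1 and Clk4. They comprised 79 of 23568 probes and 69 of 18788 gene symbols, and 8 of the genes had more than 1 probe. Livers came from wild-type B6 mice and from 5LO mice, which lack 5-lipoxygenase, the Alox5 product that starts leukotriene synthesis. Mice of both genotypes were 20 weeks old and had been kept for 16 weeks on normal chow or on an atherogenic diet rich in fat, cholesterol and cholate. The chow groups held 5 mice of each genotype; the atherogenic groups held 4 wild-type mice and 5 knockout mice. Every mouse was labelled with Cy5 and hybridised on 1 array against a Cy3 pool of wild-type livers of its own diet, pooled from 5 chow-fed or 4 atherogenic-fed mice. The labels do not say whether the wild-type mice measured singly were also in the pools.

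The spliceosome is built on each intron from small nuclear ribonucleoproteins, whose shared Sm core is encoded by the Snrp genes. The U2af heterodimer recognises the 3′ splice site, the Sf3 proteins belong to the U2 particle that binds the branch point, and Prpf proteins act mostly in the U4/U6.U5 particle and in the active spliceosome. SR proteins bind exonic enhancers through RNA recognition motifs and attract these components through their arginine- and serine-rich domains, hnRNPs often counteract them or bind elsewhere on the nascent transcript, and Clk kinases phosphorylate SR proteins and so control their release from nuclear speckles. Many of these genes limit their own protein through alternative exons that target the mRNA to decay, so the level of a transcript seen by one probe need not follow the protein.

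The set was chosen by values measured here: it was selected on the low ratios of Pnn, Srsf5 and Hnrpdl in knockout livers on chow, and of Srsf5 in the average over the diets. Differences between the genotypes on chow, in the average and between the diets' knockout effects are therefore descriptions. No p-value of a member is given for them. Counts of calls stand beside the share of all probes, except in the closing section on the processing. The atherogenic comparison used other mice and another pool and was tested, except for Srsf5, whose atherogenic value was part of that average. Both diet comparisons were tested as well. Each shares its chow mice with the chow comparison of the genotypes, so in the knockout no p-value is given for Pnn, Srsf5, Hnrpdl or Clk1, which were low in those mice. Srsf4, Srsf13b and probe 10024407284 of Hnrnpa3 lay higher than wild type in those mice, by 0.51, 0.30 and 0.73 in log2. Their diet differences in the knockout, given with p-values, are therefore not independent of those chow values. Unless another scale is named, a value is the log2 of the mouse over the pool. Letters A to E name the mice within a group and carry no order.

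Between 22763 and 23511 probes were measured on an array. Precision is limited by the number of arrays. All 79 probes passed the minimum of 3 values in every group, and 65 of them were brighter than the table's median probe. Alox5 was read by 1 probe that was brighter than 44.4% of probes and differed by 0.21 on chow and by 0.10 on the atherogenic diet, so it does not check the genotype labels. The 5 measured hepatocyte markers of 6 were all brighter than 90.1% of probes. Knockout mouse D on chow stood apart: the SD of its log2 ratios over all probes was 1.01, against 0.318 to 0.538 in the other 4 knockout mice on chow and 0.256 to 0.349 in wild type on chow. Main results that rest on this mouse are given with and without it. A chow difference given only once includes this mouse and may rest on it.

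On chow, knockout livers carried less of many of these transcripts. The median difference between knockout and wild type over the 79 probes was -0.36, against 0 over all 23344 probes tested, and 55 probes (69.6%) lay below 0 against 48.7% of all probes. Without knockout mouse D the median was -0.17. The median ratio of the 79 probes was -0.14 in mouse A, -0.36 in B, -0.14 in C, -0.86 in D and -0.25 in E. In wild type on chow it was -0.14 in A, 0.01 in B, -0.11 in C, and 0 in D and E. Mice A of both genotypes and mouse C of the knockout had like medians, and 2 of the 5 wild-type mice were below 0, so the groups met at their edges. Knockout mouse D was the lowest of its group for 47 of the 78 probes measured in all 5 mice (60.3%, against 28.1% of all probes), and wild-type mouse A was the lowest of its group for 35 of 79 (44.3%, against 18.8%).

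**Figure D1:**
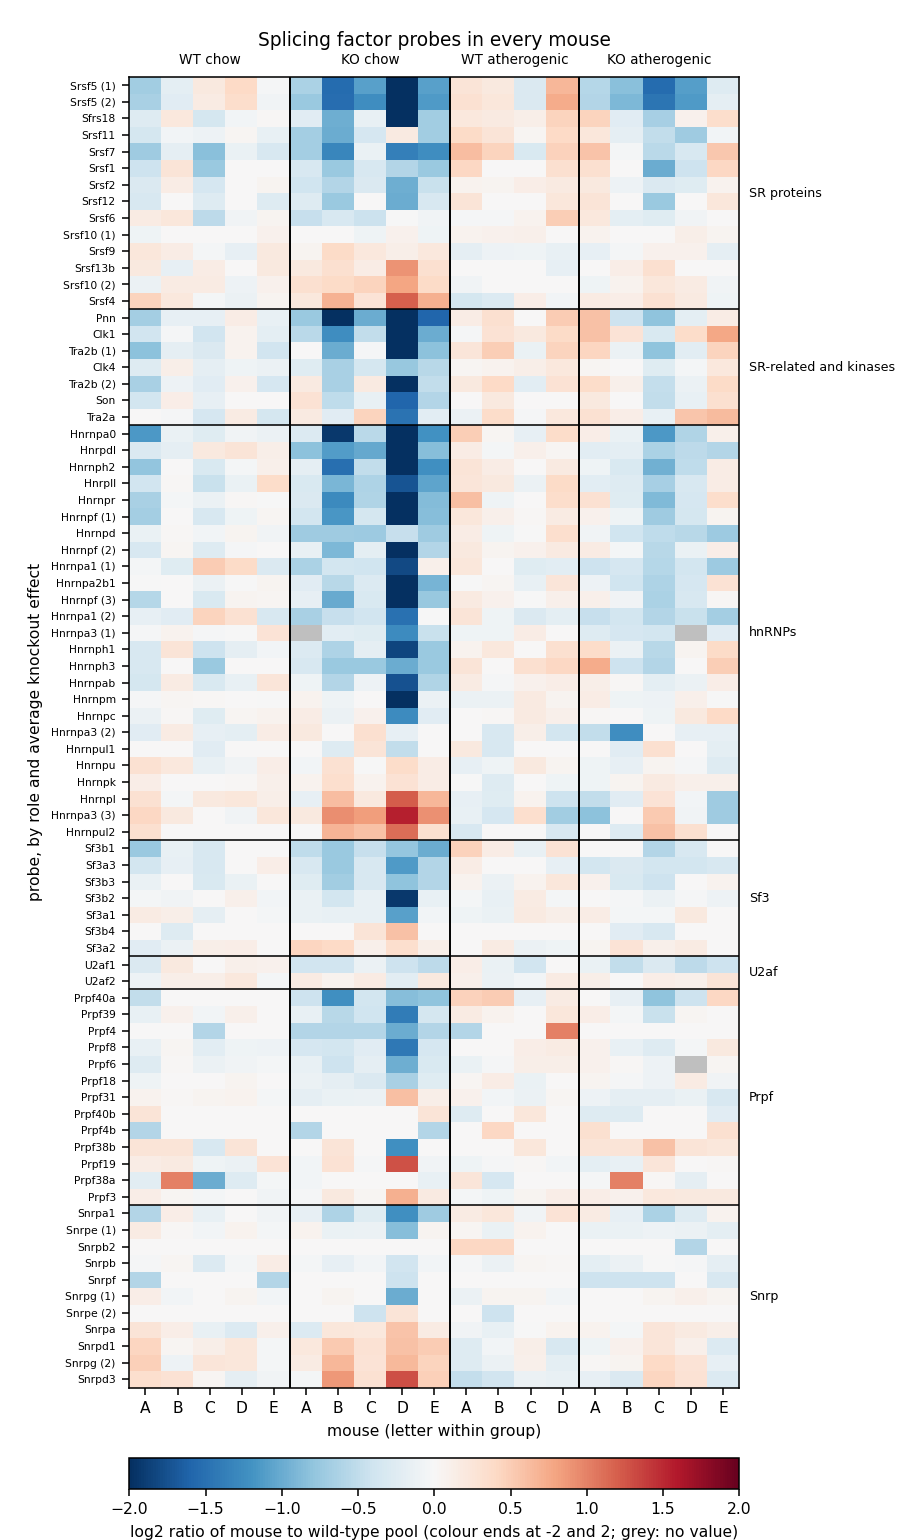
Log2 ratio of mouse to wild-type pool for the 79 probes (rows, by role and then by average knockout effect, with probes of a gene numbered) in the 19 mice (columns, by group). Blue is below the pool, red above it, colours end at -2 and 2, and grey marks a missing value. Knockout mouse D on chow has the deepest colours in both directions, and SR proteins, their kinases and hnRNPs carry most of the blue.

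Srsf5, an SR protein that binds exonic enhancers and is known to respond to growth and insulin signals, was the lowest SR protein. By probe 10024400408 the wild-type mice on chow read -0.65, -0.22, 0.17, 0.35 and -0.07, and the knockout mice -0.74, -1.52, -1.24, -2.15 and -1.14. By this probe the genotypes did not overlap on chow, with wild-type mouse A and knockout mouse A adjacent. On the atherogenic diet wild type read 0.31, 0.23, -0.29 and 0.74, and the knockout -0.59, -0.90, -1.46, -1.13 and -0.18. There 4 of 5 knockout mice lay below every wild-type mouse, and mouse E did not. Knockout livers had 41.4% of the wild-type level on chow and 46.7% on the atherogenic diet (differences of -1.27 and -1.10). The other probe, 10024397799, gave 34.9% and 47.6%. By that brighter probe the genotypes overlapped on chow through mouse A of each. Wild-type mouse A had 1.84 over a pool of 2.98, and knockout mouse A had 2.29 over 3.57. These values entered the choice of genes on both diets and are a description. Without knockout mouse D the chow differences were -1.08 and -1.03.

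Pnn encodes pinin, an SR-related protein of nuclear speckles that also takes part in the exon junction complex. Wild-type mice on chow read -0.68, -0.17, -0.17, 0.15 and -0.15, and knockout mice -0.74, -2.17, -1.0, -2.32 and -1.58. All knockout mice were below all wild-type mice on chow, by a small margin between the 2 mice A. The probe is dim: those 2 values came from intensities of 0.05 over 0.08 and 0.06 over 0.10, which the file gives in steps of 0.01, so rounding covers the gap between them. On the atherogenic diet wild type read 0.15, 0.32, 0.00 and 0.51, and the knockout 0.58, -0.42, -0.81, -0.19 and 0.15, so the groups overlapped. The knockout difference was -1.36 on chow (-1.17 without knockout mouse D) and -0.38 on the atherogenic diet (SE 0.31, Benjamini-Hochberg adjusted p = 0.678 by limma).

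Hnrpdl, now named Hnrnpdl, is an hnRNP related to Hnrnpd that binds AU-rich RNA. Wild-type mice on chow read -0.28, -0.18, 0.20, 0.26 and 0.12, and knockout mice -0.82, -1.12, -1.02, -2.39 and -0.85. On the atherogenic diet wild type read 0.14, -0.04, 0.10 and 0.04, and the knockout -0.21, -0.20, -0.63, -0.52 and -0.58. The genotypes were apart on both diets, with smaller gaps on the atherogenic one. The difference was -1.27 on chow (-0.98 without knockout mouse D) and -0.49 on the atherogenic diet (SE 0.24, adjusted p = 0.479 by limma). Hnrpdl and probe 10024398728 of Hnrnpa3 were the 2 probes of the 79 with the knockout below the wild type without overlap on both diets, a pattern that 0.231% of all probes had.

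Hnrnpd, also called AUF1, binds AU-rich elements and promotes mRNA decay; it is singled out here after its values were seen. Knockout mice on chow read -0.71, -0.70, -0.73, -0.47 and -0.71, and wild-type mice -0.14, 0.03, -0.05, 0.05 and -0.07. The knockout mice lay close together, and mouse D was the highest of its group rather than the lowest. On the atherogenic diet wild type read 0.15, -0.08, -0.01 and 0.33, and the knockout -0.07, -0.39, -0.51, -0.56 and -0.73, with mouse A inside the wild-type range. The differences were -0.63 and -0.55, that is 64.6% and 68.2% of wild type. The atherogenic value had the lowest p of the 79 probes and ranked 40 of 23344, with an adjusted p of 0.126 by limma. It passed with array quality weights (adjusted p = 0.0208) and without knockout mouse D of the chow group, which shares the estimate of the spread (adjusted p = 0.0456).

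**Figure D2:**
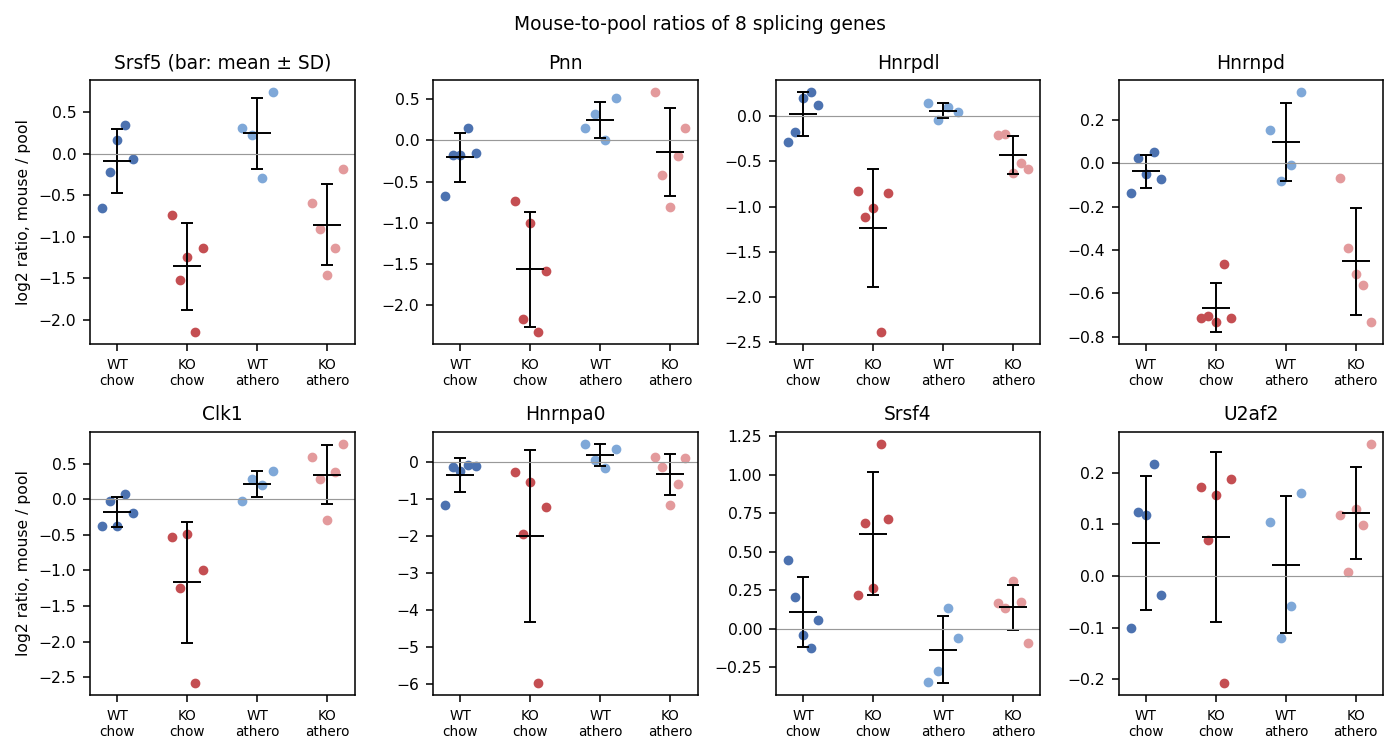
Log2 ratio of mouse to pool for 8 splicing genes (Srsf5 by probe 10024400408), 1 point a mouse, with the mean and SD of each group as a bar; the vertical scales differ. Srsf5, Pnn, Hnrpdl and Hnrnpd are lower in knockout livers on chow without overlap, Srsf4 lies higher, U2af2 is level, and the wide Hnrnpa0 bar comes from 1 mouse at -5.97.

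The 250 bases before the annotated start of these leading genes are printed because the genes lay low together, with Srsf4, which lay higher, for contrast. They come from RefSeq on build GRCm38.p6, and Srsf4 is shown for the first of its 3 annotated starts. Capitals mark matches on either strand to any of 5 motifs, which do not overlap in these windows. They are the ETS motif CCGGAAG, the CRE-like motif TGACGT and the E-box motif CACGTG, as well as the CCAAT box and the TATA box motif TATAAA.
Srsf5, chr12:80945249-80945498, plus strand: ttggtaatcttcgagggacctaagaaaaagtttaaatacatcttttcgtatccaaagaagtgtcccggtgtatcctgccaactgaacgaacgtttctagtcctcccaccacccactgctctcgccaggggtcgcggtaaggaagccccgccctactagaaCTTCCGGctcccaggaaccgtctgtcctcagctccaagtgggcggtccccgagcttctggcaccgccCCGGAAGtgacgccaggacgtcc
Pnn, chr12:59066669-59066918, plus strand: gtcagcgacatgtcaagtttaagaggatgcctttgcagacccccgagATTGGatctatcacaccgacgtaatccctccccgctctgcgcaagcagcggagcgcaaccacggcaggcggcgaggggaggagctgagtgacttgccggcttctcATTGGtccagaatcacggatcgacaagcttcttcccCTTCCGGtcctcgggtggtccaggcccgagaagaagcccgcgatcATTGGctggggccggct
Hnrnpdl, chr5:100039223-100039472, minus strand: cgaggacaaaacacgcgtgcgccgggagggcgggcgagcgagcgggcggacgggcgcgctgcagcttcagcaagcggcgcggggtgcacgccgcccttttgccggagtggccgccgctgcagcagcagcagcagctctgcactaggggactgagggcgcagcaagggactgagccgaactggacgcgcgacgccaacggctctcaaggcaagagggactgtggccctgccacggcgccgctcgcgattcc
Srsf4, chr4:131873387-131873636, plus strand: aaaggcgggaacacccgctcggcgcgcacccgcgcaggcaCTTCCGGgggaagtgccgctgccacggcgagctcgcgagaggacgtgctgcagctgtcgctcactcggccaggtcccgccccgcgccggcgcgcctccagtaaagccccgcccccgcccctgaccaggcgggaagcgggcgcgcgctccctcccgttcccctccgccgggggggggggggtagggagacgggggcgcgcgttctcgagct

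Srsf5 held the ETS motif 2 times, Pnn 1 time beside 3 CCAAT motifs (read as ATTGG on this strand), Srsf4 1 time, and Hnrnpdl none of the 5. Of the 68 current gene names among the members, 58 had a window in the table. The ETS motif was present before 29.3% of these 58 genes and before 7.83% of all 27025 genes listed, and the CRE-like motif before 25.9% and 7.29%. CCAAT was found before 51.7% against 37.5%, the E-box before 12.1% against 6.86%, and TATAAA before 6.90% against 14.3%. A gene with several starts counts when any of its windows holds the motif, and the genes listed were not matched on base composition. A match is not a binding site, and its absence says only that the letters are not in the window.

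Among the SR proteins, 10 of 14 probes lay below 0 on chow and 10 of 14 on the atherogenic diet, with medians of -0.33 and -0.19. Srsf4, a large SR protein, lay the other way. Wild-type mice on chow read 0.45, 0.21, -0.04, -0.12 and 0.05 and knockout mice 0.22, 0.69, 0.27, 1.20 and 0.71, a difference of 0.51 (0.36 without knockout mouse D) with overlap. On the atherogenic diet it differed by 0.27 (adjusted p = 0.593 by limma). Srsf9, the brightest SR protein, differed by 0.12 and 0.09, and its groups overlapped on both diets. Sfrs18, now named Pnisr, an SR-related protein named here after its values were seen, differed by -0.86 on chow and -0.24 on the atherogenic diet.

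Srsf10, an SR protein that represses splicing when dephosphorylated, gave different answers by probe. Probe 10024399806 read -0.12, 0.17, 0.17, -0.11 and 0.09 in wild type and 0.32, 0.39, 0.44, 0.79 and 0.39 in the knockout on chow, all above the wild type, a difference of 0.43 (0.34 without knockout mouse D). Probe 10024394140 of the same gene, of like brightness, stayed between -0.09 and 0.11 in all 19 mice and differed by -0.02 on each diet. The files do not say which exons the probes cover.

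The SR-related proteins and kinases other than Srsf genes (Pnn, Son, Tra2a, Tra2b, Clk1 and Clk4) had 7 of 7 probes below 0 on chow, with a median of -0.43. Clk1, the kinase that phosphorylates SR proteins, read -0.38, -0.02, -0.38, 0.07 and -0.20 in wild type and -0.53, -1.25, -0.49, -2.58 and -0.99 in the knockout on chow. It differed by -0.99 on the log2 scale without overlap there, and by -0.63 without knockout mouse D. On the atherogenic diet it lay at -0.03 to 0.39 in wild type and -0.30 to 0.78 in the knockout. The difference there was 0.13 (SE 0.32, adjusted p = 0.904 by limma). Its relative Clk4, also named after its values were seen, differed by -0.41 on chow with a range of -0.75 to -0.25 in the knockout, and by -0.11 on the atherogenic diet. The knockout effect of Clk1 on the atherogenic diet exceeded that on chow by 1.12, and for all 7 probes of this group the effect was higher on the atherogenic diet, by 0.20 to 1.12; both are descriptions. Over all probes the difference between the diets' effects passed for 0 of 23344 (limma; 5.77% had an unadjusted p under 0.05), and for 0 of the 79, of which 5 had an unadjusted p under 0.05.

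The hnRNPs, with 25 probes of 20 genes, had the lowest median of any role, -0.60 on chow and -0.27 on the atherogenic diet, with 19 and 20 probes below 0. The range on chow ran from -1.64 for Hnrnpa0, which binds AU-rich elements, to 0.73 for a probe of Hnrnpa3. Hnrnpa0 read -0.28, -1.94, -0.53, -5.97 and -1.21 in the knockout on chow and -1.15, -0.13, -0.24, -0.08 and -0.11 in wild type. Its groups overlapped, and without knockout mouse D the difference was -0.65. Hnrnph2, a G-run binding protein, and Hnrnpr, an RNA-binding protein related to Syncrip, followed the same order of mice, with -1.50 and -1.27 in knockout mouse B, -2.70 and -2.01 in D, and -1.22 and -0.87 in E, against -0.18 and -0.28 in A. Their differences were -1.01 and -0.85, and -0.64 and -0.60 without mouse D. Hnrpll, now Hnrnpll, which controls exon choice in lymphocytes, differed by -0.81 on chow and -0.43 on the atherogenic diet (adjusted p = 0.524 by limma). The 3 probes of Hnrnpf, a relative of Hnrnph2, gave -0.94, -0.77 and -0.86 on chow and -0.21 to -0.33 on the atherogenic diet. Without knockout mouse D the chow values were -0.34, -0.41 and -0.47. Hnrnpab, the brightest hnRNP, differed by -0.55 and -0.09. Without that mouse its chow difference was -0.27, and that of Hnrpll was -0.61.

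Hnrnpa1, the most studied splicing silencer protein of the family, did not overlap between the genotypes on the atherogenic diet by either of its 2 probes. By probe 10024396073 wild type read 0.26, -0.08, -0.28 and -0.20, and the knockout -0.45, -0.36, -0.58, -0.45 and -0.68. The difference was -0.43 (SE 0.23, adjusted p = 0.519 by limma), and probe 10024399748 gave -0.42. On chow the differences were -0.61 and -0.68, with knockout mouse E among the wild-type mice. Hnrnpa1 is named here after its values were seen.

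Hnrnpa3 was read by 3 probes that disagree. The brightest, 10024398728, read -0.03, 0.06, -0.02, 0.00 and 0.27 in wild type and -0.22, -0.24, -1.26 and -0.44 in knockout mice B to E on chow, with no value for mouse A. On the atherogenic diet it lay between -0.09 and 0.15 in wild type and between -0.37 and -0.23 in 4 knockout mice, with no value for mouse D, a difference of -0.29 (adjusted p = 0.574 by limma). The probe of middle brightness, 10024407284, lay the other way on chow, at 0.20, 0.93, 0.83, 1.56 and 0.91 in the knockout against -0.08 to 0.42 in wild type, and was level on the atherogenic diet. The third, 10024415478, differed by 0.12 on chow and by -0.27 on the atherogenic diet. The latter leans on knockout mouse B at -1.25, whose array read the pool at 1.26. On the remaining atherogenic arrays the same pool read 0.07 to 0.12. Knockout mice A, C, D and E read -0.49, 0, -0.17 and -0.17, against -0.36 to 0.12 in wild type. The probe is dim, with mouse intensities of 0.05 to 0.13 outside that array, so no atherogenic difference is read from it. Hnrnpul2, a DNA damage response hnRNP, also lay higher in the knockout, by 0.48 and 0.29, on a probe dimmer than the middle of the table whose 5 wild-type values on chow include 4 at 0.00.

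The spliceosome core genes lay on both sides of 0. The Sf3 probes had medians of -0.42 and -0.11 on the 2 diets, and the brightest of them, Sf3b2, lay below the wild type on chow, with mouse D at -1.93 against -0.36 to -0.13 in the other knockout mice; the difference was -0.53, and -0.18 without that mouse. U2af2, the large U2af subunit, differed by 0.01 on chow and 0.10 on the other diet. The 13 Prpf probes had medians of -0.29 and -0.01, and Prpf31, the brightest, differed by 0.02 and -0.17. The 11 Snrp probes had medians of 0 and 0.06. Snrpd3, a protein of the Sm ring, lay higher in the knockout by 0.50 and 0.28 with overlap on both diets. Snrpe differed by -0.23 and -0.13 by its bright probe and by -0.03 and 0.10 by its dim one. Without knockout mouse D the chow difference was 0.32 for Snrpd3 and -0.06 for the bright Snrpe probe.

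Counted over the 79 probes, 5 passed the adjusted p of 0.05 on chow (limma), against 1.13% of all probes. Srsf5, Pnn, Hnrpdl and Hnrnpd were the 4 lower (0.484% of all probes) and Srsf10 the 1 higher (0.643%). In the average of the diets 12 passed, against 6.76% of all probes, with 11 lower (2.87%) and 1 higher (3.89%). As these contrasts led to the choice of genes, nothing is read from those counts. In 10 probes all knockout mice lay below all wild-type mice on chow, and in 1 above, where 1.65% and 1.74% of all probes did so. These counts were also 10 and 1 without knockout mouse D, where 1.95% and 1.97% of all probes did so, and 21 and 2 without wild-type mouse A, where 4.45% and 4.39% did. The 10 include Pnn, whose gap lies within the rounding.

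On the atherogenic diet 0 of the 79 probes passed (limma), as against 0.0214% of all probes, 5 in number. At an unadjusted p under 0.05 there were 9 lower and 0 higher among the 79, which is 11.4% and 0% beside 5.05% and 5.70% of all probes. The 9 were Hnrnpd, both probes of Srsf5, Snrpb2, Srsf11, Sf3a3, U2af1, Snrpf and Sf3b1. The 2 Srsf5 probes entered the choice of genes, and the last 6 genes are named after their values were seen. Srsf11 differed by -0.51 (adjusted p = 0.388 by limma). Sf3a3 read -0.36, -0.29, -0.36, -0.36 and -0.32 in the knockout against 0.15, 0.00, 0.00 and -0.17 in wild type. The repeated -0.36 is 0.07 over 0.09 in steps of 0.01, so rounding sets how close these values are. U2af1 and Sf3b1 differed by -0.27 and -0.37, on mouse intensities of 0.09 to 0.12 and 0.06 to 0.11, so the same steps make these values coarse. Snrpb2 and Snrpf are dim probes too, and Snrpb2 read exactly 0.00 in most mice. In 5 probes (of Hnrnpa1, Hnrnpa3, Hnrpdl and Sf3a3) the knockout lay below the wild type without overlap, 6.33% against 2.78% of all probes, and in 0 above, against 2.34%. The median over the 79 probes was -0.12 against 0.00 over all, and 54 (68.4%) lay below 0 against 47.6% of all. On both diets together 45 of 79 probes (57%) were below 0 against 31.9% of all probes, and 15 (19%) above 0 against 33.4%; the diets share no array, but the chow direction entered the choice of genes.

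**Figure D3:**
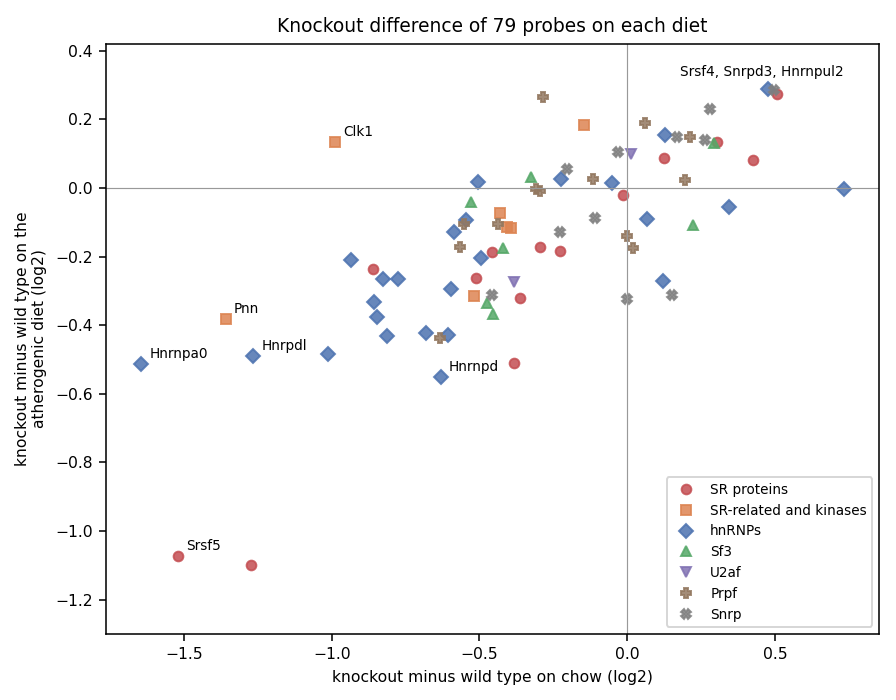
Difference between knockout and wild type (log2) of the 79 probes on chow (horizontal) and on the atherogenic diet (vertical), with 1 symbol for each role. Both Srsf5 probes lie lowest on the atherogenic diet, at -1.07 and -1.10, and Clk1 lies at -0.99 horizontally and 0.13 vertically.

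The median of these probes followed the width of the whole array's ratios. The 4 mice with the lowest medians over the 79 probes were knockout mice D, B and E on chow and knockout mouse C on the atherogenic diet, at -0.86, -0.36, -0.25 and -0.24. They were also the 4 mice with the widest log2 ratios over all probes, with SDs of 1.01, 0.538, 0.475 and 0.431, where the remaining 15 mice had 0.239 to 0.373. The part of this width in the result was not tested. Marker lists of cell types were compared as well. On chow only the mean ratios of the neutrophil list were apart between the genotypes, and the ranges of every other list overlapped. Those include endothelium, cholangiocytes, lymphocytes, erythroid cells and exocrine pancreas, whose values are not given. The 7 measured neutrophil markers of 8 averaged 0.61 to 2.54 in knockout mice on chow and -0.28 to 0.33 in wild type, with summed mouse intensities of 0.75 to 4.57 and 0.38 to 0.95. In the knockout on the atherogenic diet they averaged -1.56 to 2.51, against -0.70 to 0.43 in wild type. The 5 measured stellate cell markers of 6 averaged 0.17 to 0.66 in knockout mice on chow and -0.20 to 0.21 in wild type, with sums of 25.42 to 33.3 and 22.38 to 25.99. Those of hepatocytes summed to 40.04 to 143.85 in the knockout and 87.49 to 109.18 in wild type on chow. The sums used 5 hepatocyte probes. With the probe left out of the sums, 6 in all, 18 values were missing over the 19 arrays. A value missing from a summed probe lowers the sum. The 6 Kupffer cell markers summed to 3.57 to 9.93 in the knockout and 7.62 to 13.98 in wild type on chow, and the 4 measured skeletal muscle markers of 6 to 1.98 to 11.46 and 1.31 to 2.07. No marker of the 5 lists given with values was listed at 0. Their part in the result was not tested, and in whole liver fewer cells of a type and less RNA per cell cannot be told apart.

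**Figure D4:**
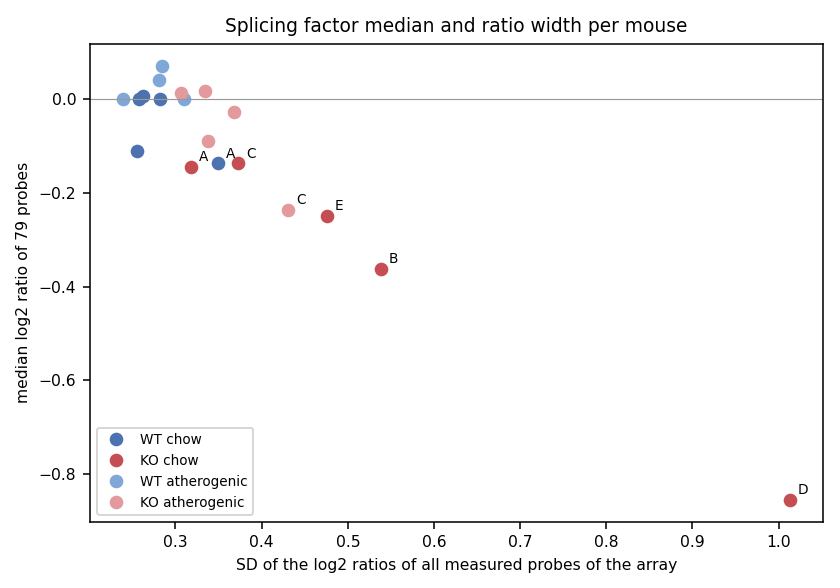
Median log2 ratio of the 79 probes in each mouse (vertical) against the SD of the log2 ratios of all measured probes on its array (horizontal), with letters for mice whose median lies below -0.13. Knockout mouse D on chow lies far from the others, at a median of -0.86 and an SD of 1.01.

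For the diet the pools cannot be used, because they differ between the diets, and the Cy5 intensity of each mouse was compared instead on the log2 scale. In knockout livers 3 of the 79 probes passed, all lower on the atherogenic diet, against 9.61% of all probes in either direction and 4.37% lower. In wild type 0 of the 79 passed (limma), against 7.16% of all probes, and 5 had an unadjusted p under 0.05, all lower, as did 12.2% of all probes. The share of these genes that passed was thus below that of all probes in both genotypes. The median difference was -0.07 in wild type, against -0.04 over all probes, and 0.12 in the knockout, against -0.01; without knockout mouse D on chow the latter was -0.02.

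Srsf4 fell on the atherogenic diet in knockout livers, to 56.1% of the chow level. Its log2 intensity was 2.10, 2.58, 2.28, 3.09 and 2.65 in knockout mice on chow and 1.75, 1.64, 1.82, 1.76 and 1.55 on the atherogenic diet. The difference was -0.83 (SE 0.17, adjusted p = 0.00560 by limma), with no overlap, and -0.70 without knockout mouse D (adjusted p = 0.00960). In wild type it was 2.48, 2.16, 2.02, 1.87 and 1.94 on chow and 1.33, 1.39, 1.69 and 1.78 on the atherogenic diet, also without overlap, but the difference of -0.55 did not pass (adjusted p = 0.0776), though it did without knockout mouse D, which shares the estimate of the spread (adjusted p = 0.0273). The wild-type pools in the Cy3 channel had means of 2.01 ± 0.08 over the 10 chow arrays and 1.62 ± 0.09 over the 9 atherogenic arrays (SD over arrays of 1 pool each, so technical).

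Srsf13b, which RefSeq now lists as Srsf12, an SR protein related to Srsf10, fell in knockout livers on the atherogenic diet to 62.7% of its chow level (log2 difference -0.67, SE 0.15; adjusted p = 0.00899 by limma; adjusted p = 0.0148 without knockout mouse D). Its log2 intensity was -3.39, -3.17, -3.24, -3.08 and -3.09 on chow and -4.02, -3.48, -4.06, -4.05 and -3.71 on the atherogenic diet, without overlap. In wild type the difference was -0.41 (adjusted p = 0.128). The probe is dim, near the step of 0.01 to which such intensities are rounded in the file, so its values are coarse. Before normalisation the knockout intensities overlapped, at 0.08 to 0.13 on chow and 0.05 to 0.11 on the atherogenic diet. The wild-type pools read -3.50 ± 0.18 on chow and -3.87 ± 0.29 on the atherogenic diet. That technical SD of 0.29 is as large as the SD of 0.26 among knockout mice on the atherogenic diet. The probe labelled Srsf12 itself, 10024393876, is a separate one that is dim as well, and it is named here after its values were seen. It differed between the diets by 0.30 in the knockout, with overlap (adjusted p = 0.462 by limma), and by -0.08 in wild type. The probes of this current gene thus gave different diet values in the knockout.

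The third was probe 10024407284 of Hnrnpa3, with log2 intensities of -1.94, -1.20, -1.50, -0.37 and -1.39 in knockout mice on chow and -3.03, -2.32, -1.57, -2.26 and -3.21 on the atherogenic diet. The groups overlapped through mouse C on the atherogenic diet. The level on the atherogenic diet was 43.6% of that on chow (SE of the log2 difference 0.29, adjusted p = 0.0143 by limma; adjusted p = 0.0339 without knockout mouse D), and the wild-type difference was -0.40 (adjusted p = 0.453). Its wild-type pools differed by -0.05. The brightest Hnrnpa3 probe, 10024398728, was level between the diets in the knockout, at 0.07 (adjusted p = 0.828 by limma). Probe 10024415478 differed by 0.19 there (adjusted p = 0.807 by limma), a value that leans on knockout mouse B on the atherogenic diet. The fall was thus seen by probe 10024407284 only. Pnn differed between the diets by 1.02 in the knockout, whose chow mice led to the choice of this gene, and by 0.02 in wild-type mice, while the wild-type pools differed by -0.44. Clk1 differed by 0.73 in the knockout and -0.25 in wild-type mice, and by -0.70 between the pools. Both probes of Srsf5 differed by 0.01 in the knockout, and by -0.29 and -0.01 in wild-type mice against -0.65 and -0.40 between the pools. For these genes the mice and the pools of wild type thus gave different diet values; each pool is 1 RNA sample.

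**Figure D5:**
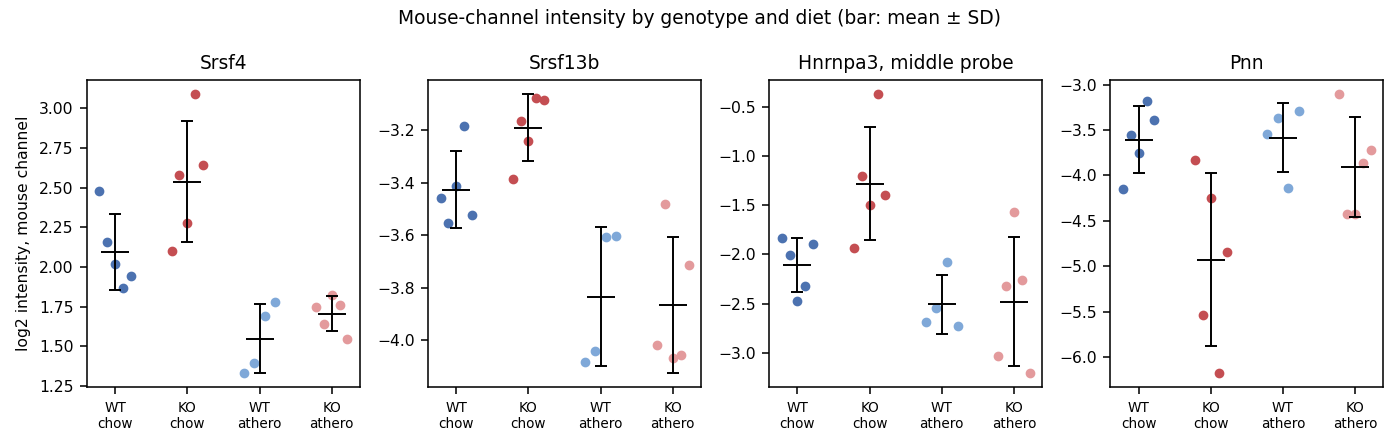
Log2 intensity of the mouse channel for Srsf4, Srsf13b, probe 10024407284 of Hnrnpa3 and Pnn, 1 point a mouse, with the mean and SD of each group as a bar; the vertical scales differ. In knockout livers Srsf4 and Srsf13b are below their chow values on the atherogenic diet without overlap, and Pnn spreads widely on chow.

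A further 10 gene lists, drawn up by function and not by how the genes moved, add 195 genes with 217 probes: 8 lists of splicing and mRNA processing, 1 of temperature and heat shock genes (17 probes) and 1 of clock genes (18 probes). In the atherogenic knockout comparison 0 of these 217 passed (limma), with 12 lower and 8 higher at an unadjusted p under 0.05. These are 5.53% and 3.69%, beside the 5.05% and 5.70% of all probes given above. For the diet, 3 fell and 2 rose in wild type, which is 1.38% and 0.922% beside 2.54% and 4.62% of all probes. In the knockout 12 fell and 4 rose, 5.53% and 1.84% beside 4.37% and 5.23% of all probes. The 5 in wild type, named after their values were seen, were Clk3, Acin1 and Rbfox2, which fell, and the cold-inducible Rbm3 and Bhlhe40, a repressor of the clock list, which rose. Clk3, a kinase of the same family as Clk1, fell by 0.70 on the log2 scale in wild type (adjusted p = 0.0104) and by 0.79 in the knockout (adjusted p = 0.00310, both by limma). In the average of the diets, a description as above, 2.87% of all probes were called lower and 3.89% higher. The 28 probes of other SR-related speckle proteins had 4 called lower, 2 for Rnps1 and 1 each for Scaf11 and Ppig, and 2 higher, for Thrap3 (0.69) and Zranb2 (0.49). The 13 probes of SR protein kinases and phosphatases had 2 lower, for Ppp1cb and Cdk13, and 1 higher, for Cdk12. The 49 probes of other splicing regulators had 3 lower, for Cirbp, Matr3 and Nono, and 1 higher, for Rbm4. The median of these 3 lists in the average was -0.05, 0.07 and -0.15, against -0.24 for the 79 probes and 0.01 over all probes. The 22 probes of mRNA export and cleavage genes had the same median as the 79, -0.24, with 18 of 22 below 0. The median was -0.21 for heat shock genes, -0.17 for other genes of the spliceosome core, -0.10 for the exon junction complex and nonsense-mediated decay, -0.08 for LSm and SMN genes, -0.07 for the 1 probe of a long noncoding RNA and 0.01 for clock genes. Low medians in the average were thus not limited to the 79 probes. Calls lower and higher in the average were 3 and 0 of 15 probes for the exon junction complex and nonsense-mediated decay. They were 2 and 3 of 41 for the spliceosome core, 2 and 2 of 17 for heat shock and 0 and 1 of 18 for clock genes. For LSm and SMN genes they were 1 and 0 of 18, and for mRNA export and cleavage 1 and 0 of 22. Some probes stand in more than 1 list, and nothing is read from these counts.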

How the data were processed

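Per the labels' protocols, RNA was isolated with Trizol and a 100 ng input went through 2 amplification rounds. The submitters' processing notes name Agilent Feature Extraction 8.5.1.1. Per the file headers, the deposited table holds an intensity for the mouse (Cy5) and for the pool (Cy3) on each of 19 arrays; for the authors' background and dye correction the sources used here give nothing. The deposited series matrix holds log10 ratios per the file headers' sample columns, which matched log10 of mouse over pool and served as an alternative. The table's p-values were not used, and 0 of its intensity columns belong to other samples.

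The log2 of mouse over pool was taken from the deposited intensities with no further step. Probes with under 3 values in a group were left out (23344 of 23568 kept), and limma 3.58.1 in R 4.3.3 fitted 4 groups in 1 model, with Benjamini-Hochberg adjustment over all probes and a threshold of 0.05. For the diet, Cy5 values were compared after normalisation (loess in each array, Aquantile across them). The scripts were tested on simulated data.

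The members, the gene lists and the tests were chosen with earlier results of these data known. Columns name a group but no sample, so letters are only names. No pair of arrays was identical (0 pairs). Nothing in the labels says that equal replicate numbers mark related mice.

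Named members were Pnn, Srsf5 and Hnrpdl; those passing the atherogenic or diet tests; the 8 lowest and 4 highest in the average; the brightest of each role; and genes with several probes of which 1 passed. From the other lists up to 4 genes were named that passed in the average. The list of other SR-related speckle proteins exceeded this limit, as all of its genes that passed are named. Genes outside this rule are said to be chosen after their values were seen. Alternatives were other normalisations, floors, filters and variance models, the series matrix, and leaving out each mouse. Promoter windows come from RefSeq on GRCm38.p6, and 4 symbols were updated through its gene table.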

Additional observations from a re-analysis of the deposited data

Results flagged for a closer look

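In 28 probes of the 21 named genes, the mice of each group with 4 or 5 values were examined for 1 mouse that lay far from the others, which chance alone does in about 1 of 20 groups; 12 groups had one. In knockout mice on chow it was mouse D in 6 probes: Hnrpdl at -2.39 with the next mouse at -1.12, probe 10024399903 of Hnrnpf at -3.42 with the next at -0.89, Sf3b2 at -1.93 with the next at -0.36, the bright Snrpe probe at -0.86 with the next at -0.13, probe 10024399806 of Srsf10 at 0.79 with the next at 0.44, and Srsf13b at 0.89 with the next at 0.32. In wild type on chow it was mouse A in 3 probes: Hnrnpa0 at -1.15 with the next at -0.24, Hnrnpr at -0.64 with the next at -0.12, and the dim Hnrnpul2 probe at 0.32 with all others at 0. In wild type on the atherogenic diet, 3 probes had 1 mouse away from others that all read 0: mouse B for the dim Snrpe probe at -0.42, mouse A for probe 10024399806 of Srsf10 at -0.078 and mouse D for Srsf13b at -0.17.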

How the results depend on the processing

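No called value changed sign under another setting; the median difference for the diet in the knockout did, from 0.12 to -0.02, without knockout mouse D on chow. The counts of calls in this section stand without the share of all probes called under the same setting. Nothing about these genes is therefore read from them. On chow the 5 calls became 0 with quantile normalisation of the ratios, 13 when the dimmer 50% of probes were left out, 11 with array quality weights and 0 on the series matrix with the replicate block. In the average the 12 calls became 6, 19, 25 and 7 under the same 4 settings, and on the atherogenic diet 3 were called with array quality weights in place of 0, 2 of them the Srsf5 probes that entered the choice of genes. For the diet in wild type, 1 was called with the mouse channel centred on the array median, which put the median difference at -0.32, 1 without the dimmer probes and 3 with array quality weights, in place of 0. The other settings kept these counts within 1.5 times. Leaving out 1 mouse at a time gave 0 to 25 calls on chow, 3 to 25 in the average, 0 to 1 on the atherogenic diet, 0 to 3 for the diet in wild type and 3 to 8 for the diet in the knockout. On chow there were 0 without wild-type mouse B, D or E or knockout mouse B, 2 without wild-type C or knockout D or E, 8 without wild-type A, 15 without knockout C and 25 without knockout A; without a mouse of the atherogenic groups there were 2 (knockout B or D), 3 (wild-type C or D, knockout A), 4 (wild-type A or B, knockout E) or 5 (knockout C). In the average there were 3 to 7 without wild-type mouse B, D or E or knockout B on chow, or wild-type A, B or D or knockout B, C or D on the atherogenic diet, 19 without knockout C on chow and 25 without knockout A. The single atherogenic call, Hnrnpd, came without knockout D on chow or knockout A on the atherogenic diet. The diet in wild type had 3 calls without knockout D on chow and 1 without wild-type A on chow or wild-type D on the atherogenic diet, and the diet in the knockout 8 without knockout A and 5 without knockout C on chow. The 3 diet calls of Srsf4, Srsf13b and Hnrnpa3 passed without any 1 mouse and under all 6 other settings. Over the mice left out, the median difference ranged from -0.42 to -0.17 on chow, -0.16 to -0.08 on the atherogenic diet, -0.12 to -0.046 for the diet in wild type and -0.02 to 0.20 in the knockout; on chow it was -0.13 with quantile normalisation of the ratios and -0.42 without the dimmer probes. Probes apart without overlap on chow, lower, numbered 10 without knockout D and 21 without wild-type A. On the atherogenic diet they numbered 5 without knockout C. These alternatives were chosen after seeing the data, and no other mouse was left out for these counts. The cause of these changes was not tested. Deviations of mice with equal replicate numbers correlated at -0.43 to -0.03 on chow and -0.06 to 0.10 on the atherogenic diet. No high positive value was seen, but such correlations cannot exclude pairing. The replicate block left 0 calls on the atherogenic diet. Dim probes, rounded in the file, limit what Pnn, Sf3a3, Sf3b1, U2af1, Snrpf, Snrpb2, Hnrnpul2 and Srsf13b can show.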
